A study of Mus musculus with 4 samples.

Results

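The genes described here carry glucose into the cell, break it down to pyruvate, or store and release it as glycogen. They are 40 genes chosen by name for these functions, and all 61 probes that the array's design gives to them were read, of 39429 probes for 29676 gene names. The samples were astrocyte-enriched cultures (AECs), which are mixed glial cultures from the cerebral cortex of newborn ICR mouse pups, chosen regardless of sex. Microglia were depleted from these cultures by PLX3397, a blocker of the receptor CSF1R. In this study 2 samples came from untreated AECs and 2 from AECs kept for 15 h under oxygen–glucose deprivation (OGD), that is, in glucose-free medium under hypoxia. RNA of each sample was labeled with Cy3 and hybridized to its own Agilent expression array, and the 4 arrays lay on 1 slide. Both groups had received PLX3397, and oligodendrocytes remained in such cultures. By the study's methods wells were filled from separate cultures of different pups, while the labels do not tie the 4 samples to cultures, and p-values measure only the spread between these samples.

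Glucose enters through facilitative transporters of the Slc2a (GLUT) family and is trapped in the cell by hexokinases, after which glycolysis yields ATP without oxygen. Most steps are served by several isoforms encoded by separate genes, and which isoform is used differs between tissues and between well-supplied and hypoxic cells. In the brain glycogen is held mainly by astrocytes. Hypoxia-inducible factors (HIFs) are known activators of many glycolytic genes and bind short DNA elements with the core ACGTG or GCGTG.

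For 37 of the 40 genes, RefSeq promoter windows of assembly GRCm38.p6 were at hand, and the 250 bases before each transcription start were read. The windows below are those of a selection of these genes, in the direction of transcription, 5′ to 3′. Capitals mark ACGTG and GCGTG on either strand, so that CACGT and CACGC are also in capitals, and CACGTG counts once on each strand. They are shown because transcripts of the upper 4 rose and those of the lower 2 fell relative to the rest of the array.
Hk2, minus strand, chr6:82774455-82774704: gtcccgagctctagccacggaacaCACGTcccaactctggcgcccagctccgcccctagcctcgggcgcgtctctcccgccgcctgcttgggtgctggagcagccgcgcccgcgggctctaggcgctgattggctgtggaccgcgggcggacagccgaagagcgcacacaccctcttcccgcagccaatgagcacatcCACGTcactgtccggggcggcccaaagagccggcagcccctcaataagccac
Slc2a1, plus strand, chr4:119108495-119108744: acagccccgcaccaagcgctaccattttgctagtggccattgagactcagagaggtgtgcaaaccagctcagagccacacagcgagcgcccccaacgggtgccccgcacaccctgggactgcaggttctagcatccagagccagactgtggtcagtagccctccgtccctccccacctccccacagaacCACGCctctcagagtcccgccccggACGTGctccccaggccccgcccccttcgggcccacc
Pfkl, minus strand, chr10:78009808-78010057: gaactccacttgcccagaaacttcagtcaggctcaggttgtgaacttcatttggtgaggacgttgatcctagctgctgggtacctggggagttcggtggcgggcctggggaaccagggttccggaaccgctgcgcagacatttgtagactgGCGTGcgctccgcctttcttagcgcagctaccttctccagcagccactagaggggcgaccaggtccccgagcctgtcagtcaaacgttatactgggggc
Eno2, minus strand, chr6:124769674-124769923: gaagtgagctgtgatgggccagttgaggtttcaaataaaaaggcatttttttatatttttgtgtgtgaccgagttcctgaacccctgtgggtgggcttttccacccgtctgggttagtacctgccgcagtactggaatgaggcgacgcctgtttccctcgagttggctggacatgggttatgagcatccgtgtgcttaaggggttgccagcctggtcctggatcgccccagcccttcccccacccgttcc
Slc2a12, plus strand, chr10:22644761-22645010: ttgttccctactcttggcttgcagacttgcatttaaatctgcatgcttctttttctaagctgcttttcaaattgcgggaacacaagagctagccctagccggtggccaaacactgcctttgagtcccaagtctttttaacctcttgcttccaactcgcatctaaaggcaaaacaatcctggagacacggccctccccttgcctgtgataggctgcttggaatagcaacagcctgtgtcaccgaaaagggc
Ppp1r3d, minus strand, chr2:178414464-178414713: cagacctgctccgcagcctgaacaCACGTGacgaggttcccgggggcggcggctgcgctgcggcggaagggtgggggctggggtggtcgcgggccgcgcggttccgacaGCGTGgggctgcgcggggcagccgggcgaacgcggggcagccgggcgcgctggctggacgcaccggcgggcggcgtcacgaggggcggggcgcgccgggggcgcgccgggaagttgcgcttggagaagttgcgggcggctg

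The window of Hk2 held 2 matches and that of Slc2a1 also held 2, whereas the window of Pfkl held 1 and that of Eno2 held 0. Of the genes that fell, Slc2a12 had 0 matches and Ppp1r3d had 3. The other genes that fell had 0 (Slc2a10), 1 (Eno3, Pfkfb4 and, in 1 of its windows, Pfkfb1) or 2 (Pygb). Genes that rose but are not shown ranged from 0 (Pgam2) to 6 (Ugp2, in 1 of its windows). Across the 37 genes, 29 (78.4%) had a match in at least 1 of their windows, compared with 41.5% of 27025 genes in the RefSeq table. By window the shares were 70.4% of 54 windows and 38.6% of 32851 windows. The RefSeq genes were not limited to those tested on the array, nor matched for base composition or number of windows. A match describes these letters only, and binding was not measured by the arrays.

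Relative to the rest of the array, most genes of these pathways were higher after OGD, and a smaller set was lower. Signals were placed on the log2 scale relative to each array's 75th percentile, and "rose" and "fell" below are relative to that percentile at an adjusted p under 0.05 in limma. Of the 40 genes, 39 exceeded background on every array and were tested by their brightest probe. In total 29 rose (74.4%, against 37.1% of the 21051 genes tested on the array), 7 fell (17.9%, against 27.8% of all genes tested) and 3 did not pass the test. The increase was over 2-fold for 19 genes and the decrease for 5, where 12.7% and 15% of all genes tested passed the same limits. The median log2 fold change was 1.00 for the 39 genes and 0.16 for all genes tested. The OGD arrays lay wholly above the untreated arrays for 31 genes and wholly below for 8, as they did for 48.6% and 36.2% of all genes tested. In none of these comparisons were all genes tested matched to the 39 genes for signal strength. In this bulk RNA, fewer cells of a type and less RNA per cell cannot be told apart.

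**Figure D1:**
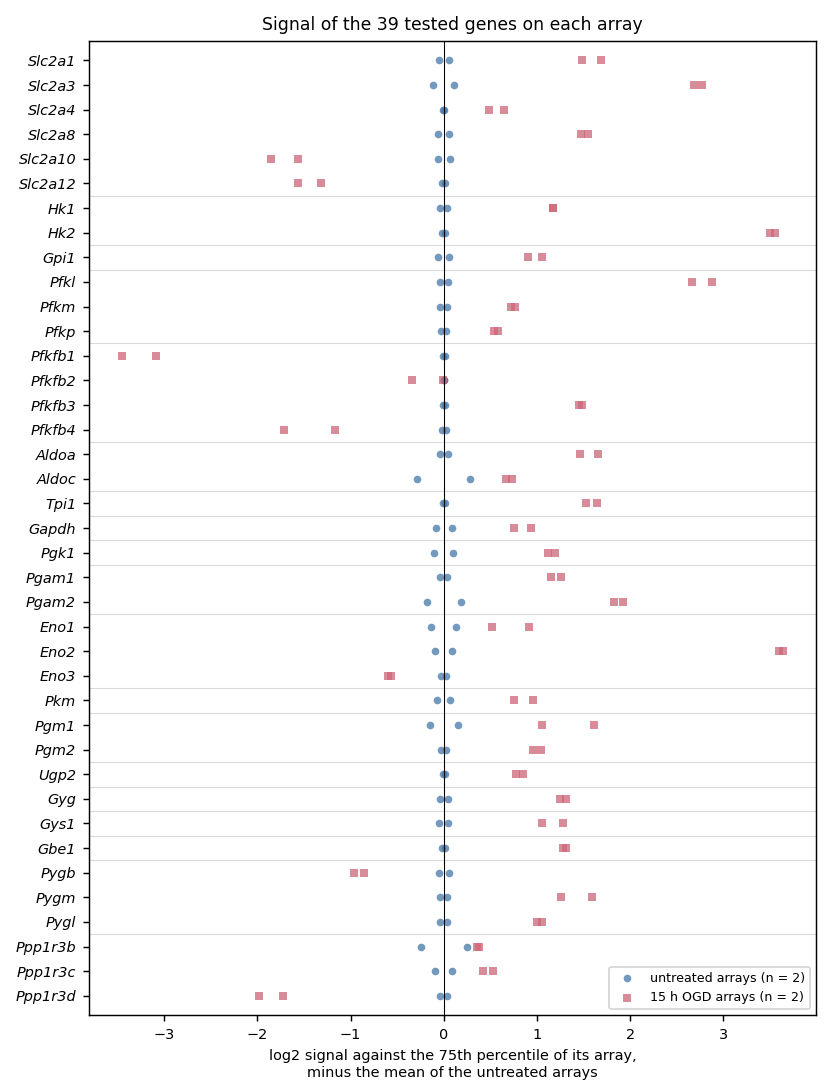
Each row is a gene and each point an array, with the log2 signal relative to the array's 75th percentile on the x axis after subtraction of the untreated mean (circles, untreated, n = 2; squares, 15 h OGD, n = 2), and grey lines separate the steps of the pathway. Eno2 and Hk2 lie farthest to the right, at 3.62 and 3.53, and Pfkfb1 farthest to the left, at −3.27.

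The choice of scale mattered for these genes. For the processed signal the 75th percentile of untreated arrays was 2135 and 2164 but that of OGD arrays was 887 and 776, while spiked-in control probes differed by −0.08 on average on the log2 scale. That average is over 9 of 10 such probes, which ranged from −0.75 to 0.28, so that values close to 0 on the spiked-in scale are less certain than their SE. When arrays were scaled on those probes instead, the median log2 fold change over all genes tested went from 0.16 to −1.13. By the study's methods the same amount of total RNA was labeled from each sample. Values on the spiked-in scale are therefore relative to that amount and not to the number of cells. On that scale 5 of the 39 genes were higher (3.84% of all genes tested) and 19 were lower (83.3% of all genes tested), with a median of −0.29. Over 2-fold, 4 were higher and 8 lower on that scale, against 2.01% and 55.7% of all genes tested. With quantile normalization 20 were higher and 7 lower (28.4% and 31.1% of all genes tested), with a median of 0.35, and 10 were higher over 2-fold, against 9.89% of all genes tested. The calls of Gpi1 (0.10), Pfkm (0.21), Aldoa (0.22), Pgk1 (0.26), Pkm (0.10), Ugp2 (0.25), Ppp1r3c (0.35), Gapdh (−0.05) and Eno1 (−0.04) were lost there. All of these genes lay above the 75th percentile on every array. From the 75th percentile to quantile normalization the bright Aldoa went from 1.56 to 0.22, and the dim Pgam2 from 1.88 to 1.86. Hk2, Eno2, Pfkl, Slc2a3 and Pgam2 were higher under each of the 4 scalings (75th percentile, median, quantile and spiked-in probes), a call shared by 3.84% of all genes tested. Slc2a10, Slc2a12, Pfkfb1, Pfkfb4, Eno3, Pygb and Ppp1r3d were lower under each, a call shared by 25.9% of all genes tested. For the other 27 genes the call depended on the scaling or was not made. The cause of the lower 75th percentile after OGD was not tested.

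**Figure D2:**
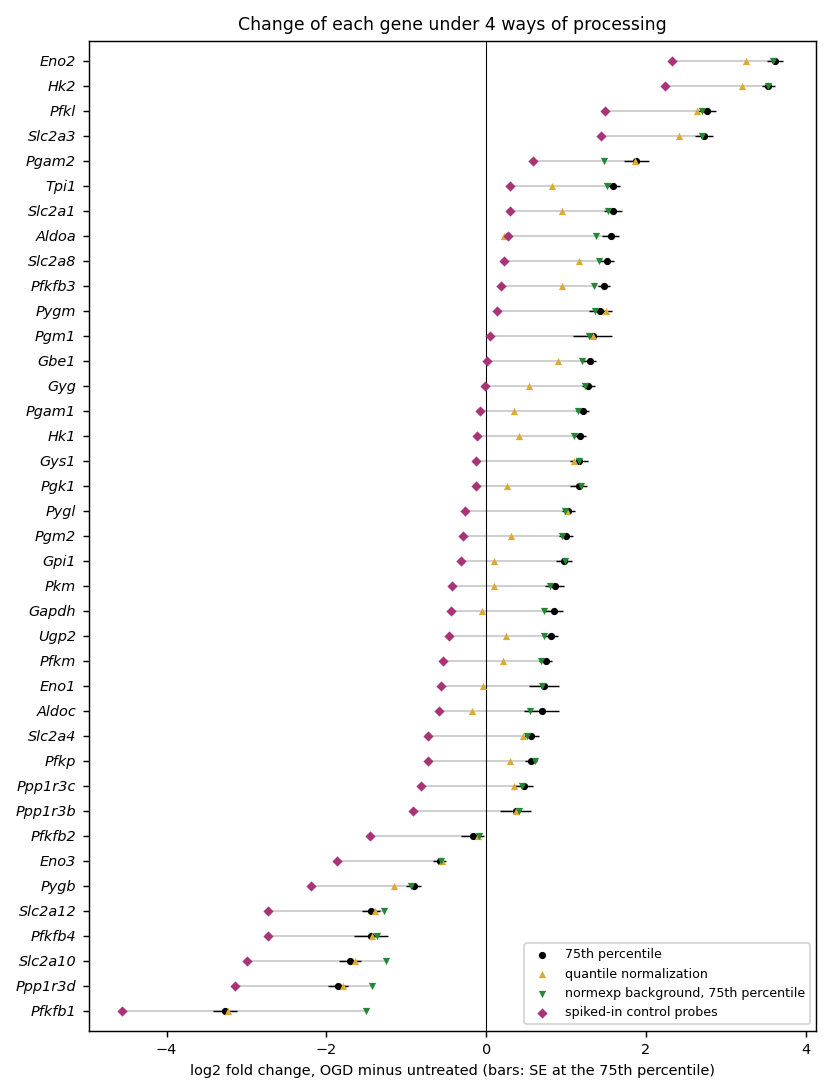
The log2 fold change (OGD minus untreated, x axis) of each of the 39 genes is shown under 4 ways of processing, with bars for the SE at the 75th percentile. The values scaled on spiked-in probes are farthest to the left for all genes but Aldoa, and 5 genes at the top and 7 at the bottom pass the threshold in the same direction under the 75th percentile, quantile normalization and spiked-in scaling.

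Among the transporters, Slc2a3 showed the largest increase and Slc2a10 the largest decrease. Slc2a3 encodes GLUT3, the high-affinity transporter best known from neurons, and its probe (chr6:122678075-122678134, mm9) gave processed signals of 4438 and 5273 in the untreated samples and 13584 and 11239.8 after OGD. Both OGD arrays lay above both untreated arrays even before scaling, and the increase was 6.62-fold (2.73 ± 0.11 SE on the log2 scale; limma, adjusted p = 0.000802). Slc2a1 encodes GLUT1, the transporter of astrocytes and the blood–brain barrier. Its probe (chr4:118809864-118809923) gave 24214 and 22858 untreated and 31356 and 23681 after OGD. The raw signals overlapped, and the gene rose by 1.59 ± 0.11 (log2) relative to the 75th percentile (limma, adjusted p = 0.00155) but was at 0.30 with spiked-in scaling (limma, adjusted p = 0.0839). Slc2a8, which encodes the intracellular transporter GLUT8, rose 2.84-fold and was at 0.22 with spiked-in scaling. Slc2a4, which encodes the insulin-responsive GLUT4, rose 1.48-fold relative to the 75th percentile (log2 0.57, and 0.56 to 0.57 without either untreated array, when the call was lost) but was lower, at −0.72, with spiked-in scaling.

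The remaining pair of transporters moved the other way. Slc2a10 (GLUT10; chr2:165344713-165344772) had signals of 770.4 and 853 untreated and 113 and 80.7 after OGD, and fell 3.27-fold (log2 −1.71 ± 0.14; limma, adjusted p = 0.00191). Slc2a12 (GLUT12; chr10:22424022-22424081) had signals of 1645 and 1707 untreated and 233 and 243 after OGD, and fell 2.72-fold (log2 −1.44 ± 0.12; limma, adjusted p = 0.00193). Neither gene reached its untreated range on an OGD array, before or after scaling. Slc2a3 gained 1.14 ± 0.18 (SE, log2) on Slc2a1 within the arrays, whereas Slc2a1 and Slc2a8 differed in their change by 0.08 ± 0.07. Slc2a1 gained 3.30 ± 0.12 on Slc2a10 and 3.03 ± 0.24 on Slc2a12.

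Such differences between isoforms are taken within an array, so that a factor common to an array, such as its 75th percentile, cancels. Their SE comes from the 2 arrays of each group alone, whereas limma shares spread between genes, so a small SE is itself uncertain. In total 37 pairs of isoforms were compared over 10 steps and in 34 of them the ratios of the 2 groups did not overlap. Shares over pairs of other genes were not computed, so these counts describe the pairs alone, and single genes did not overlap in 48.6% (higher) and 36.2% (lower) of all genes tested. With 2 arrays in each group the smallest p that an exact two-sided permutation test can give is 0.333, so that no pair could pass a threshold. For 28 pairs the ratio changed by over 1 on the log2 scale. Normexp background correction and quantile normalization do not act as a common factor, and moved 18 and 28 of the 37 values by more than the spread between replicates. The number of pairs past that size was then 27 and 28, but not of the same pairs. Quantile normalization took Slc2a1 minus Slc2a4 to 0.49 and Eno1 minus Eno3 to 0.51, and brought Pgam2 minus Pgam1 to 1.51 and Pgm1 minus Pgm2 to 1.03.

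**Figure D3:**
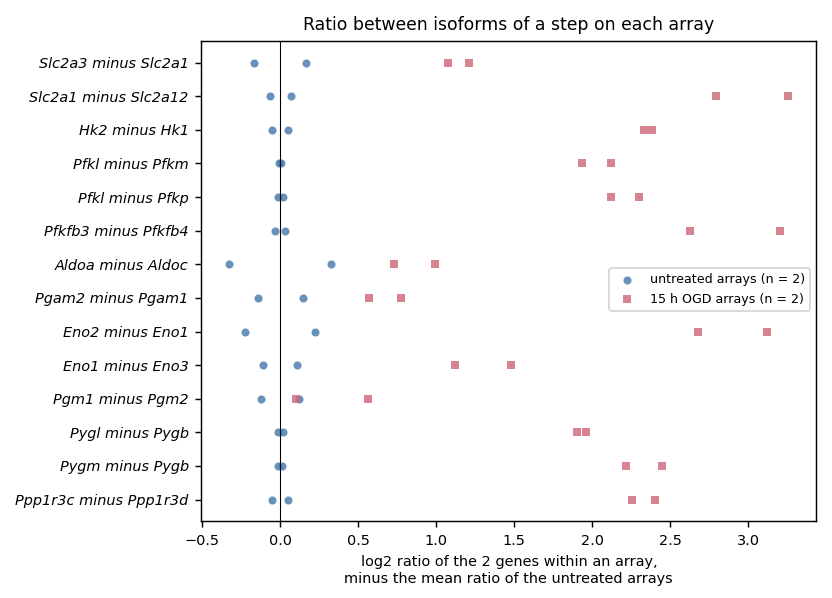
For 14 of the 37 isoform pairs, the log2 ratio of the genes within an array is plotted on the x axis relative to the mean ratio of the untreated arrays (circles, untreated, n = 2; squares, 15 h OGD, n = 2). The groups are apart in every row except Pgm1 minus Pgm2, with the widest gaps for Slc2a1 minus Slc2a12, Pfkfb3 minus Pfkfb4 and Eno2 minus Eno1.

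Hexokinases phosphorylate glucose to glucose-6-phosphate. Hk2 encodes the inducible isoform, and its probe (chr6:82675056-82675115) had signals of 3676 and 3649 untreated and 17167 and 15586 after OGD. The gene rose 11.6-fold (log2 3.53 ± 0.08; limma, adjusted p = 0.000731), and 2.24 of this on the log2 scale remained with spiked-in scaling. Hk1 encodes the main hexokinase of brain. Its brightest probe gave 39926 and 42514 untreated and 38380.1 and 33635 after OGD, lower in raw signal but 2.26-fold higher relative to the 75th percentile (log2 1.18 ± 0.08) and at −0.11 with spiked-in scaling. Within the arrays Hk2 gained 2.36 ± 0.06 on Hk1, a 5.12-fold change of the ratio. Hk3 was not tested, because its signals of 8.76 and 9.51 untreated and 3.15 and 5.09 after OGD were well above background on 1 untreated array only. Gpi1, which encodes glucose-6-phosphate isomerase, rose 1.97-fold relative to the 75th percentile and was lower, at −0.31, with spiked-in scaling.

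Phosphofructokinase-1 commits the sugar to glycolysis and is built from liver (Pfkl), muscle (Pfkm) and platelet (Pfkp) subunits. Pfkl (chr10:77450926-77450985) had signals of 1856 and 1999 untreated and 5028 and 5112 after OGD, and rose 6.82-fold (log2 2.77 ± 0.11; limma, adjusted p = 0.000777). Signals of Pfkm were 20261 and 21618 untreated and 14279 and 12798 after OGD, and those of Pfkp were 8922 and 9379 and 5485 and 4929. These probes lost raw signal where that of Pfkl gained it, but a second Pfkp probe did not, with 401 and 411 untreated and 432 and 403 after OGD. Relative to the 75th percentile Pfkm rose by 0.74 and Pfkp by 0.56 on the log2 scale (Pfkp 0.53 to 0.58 without either untreated array, when its call was lost), and with spiked-in scaling both were lower, at −0.55 and −0.73. The second Pfkp probe rose by 1.41 and was at 0.12 with spiked-in scaling. Pfkl gained 2.03 ± 0.09 on Pfkm and 2.21 ± 0.09 on Pfkp, the latter 1.78 with the mean over probes.

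The Pfkfb enzymes make and remove fructose-2,6-bisphosphate, the allosteric activator of phosphofructokinase-1, and of the 4 genes 1 rose, 2 fell and 1 did not pass the test. Pfkfb3, known for its high kinase activity, had signals of 17482 and 17457 untreated and 20194 and 17304 after OGD at its brightest probe. It rose 2.77-fold (log2 1.47 ± 0.08; limma, adjusted p = 0.000973) and was at 0.18 with spiked-in scaling. Pfkfb1, known from liver and muscle, had signals of 427 and 439 untreated and 21.0 and 14.3 after OGD (chrX:147078320-147078379). It fell 9.66-fold (log2 −3.27 ± 0.15; limma, adjusted p = 0.000865), the largest decrease of the 39 genes. With normexp background correction, which added an offset of 50, the value was −1.51. The Pfkfb1 signals were dim after OGD but well above background on both OGD arrays, and the cause of the smaller value was not tested. Pfkfb4, another isoform known to respond to hypoxia, had signals of 2816 and 2935 untreated and 361 and 462 after OGD. It fell 2.72-fold (log2 −1.44 ± 0.21; limma, adjusted p = 0.00709), and its second probe was not well above background on any array. Pfkfb2, known from heart, was at −0.17 ± 0.14 and did not pass the test (limma, adjusted p = 0.344). It was called lower without the second OGD array (−0.34) but was at −0.0035 without the first, and was lower, at −1.46, with spiked-in scaling (limma, adjusted p = 0.000475). Within the arrays Pfkfb3 gained 2.91 ± 0.29 on Pfkfb4 and 1.64 ± 0.18 on Pfkfb2. With the mean over probes these were 3.66 and 2.38, and with quantile normalization 2.38 and 1.05.

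The enzymes from aldolase to phosphoglycerate mutase mostly rose relative to the 75th percentile. Aldoa, the ubiquitous aldolase, had signals of 197825 and 213330.0 untreated and 232946 and 234299 after OGD and rose 2.95-fold (log2 1.56 ± 0.11; spiked-in scaling 0.27, quantile normalization 0.22, neither past the threshold). Aldoc, the brain aldolase that marks astrocytes, had signals of 107790.0 and 73853 untreated and 60968 and 51127 after OGD, and at 0.70 ± 0.22 did not pass the test (limma, adjusted p = 0.053). It was called higher without the first untreated array (0.98, against 0.41 without the second), was at −0.18 with quantile normalization and was lower, at −0.59, with spiked-in scaling. The untreated arrays differed more for Aldoc than for any other gene here, and the change of Aldoa against Aldoc was 0.86 ± 0.35, with 0.53 without the first untreated array, 1.19 without the second and 0.40 with quantile normalization. Tpi1, which encodes triosephosphate isomerase, rose by 1.59 on the log2 scale and was at 0.30 with spiked-in scaling (limma, adjusted p = 0.061). Gapdh and Pgk1, which encode glyceraldehyde-3-phosphate dehydrogenase and phosphoglycerate kinase and often serve as reference genes, rose 1.80-fold and 2.23-fold relative to the 75th percentile. With spiked-in scaling Gapdh was lower, at −0.44 (limma, adjusted p = 0.0231), and Pgk1 was at −0.13 (limma, adjusted p = 0.331), and with quantile normalization Gapdh was at −0.05. These Gapdh values are those of its brightest probe, and 5 of its 6 probes on chromosome 6 were at −0.0005 to 0.15 with spiked-in scaling, none past the threshold, and at 0.41 to 0.90 with quantile normalization. Pgam1, the general mutase, rose 2.31-fold, and Pgam2, the muscle form, rose 3.67-fold from dim signals of 36.7 and 28.9 to 47.7 and 44.7. Pgam2 gained 0.67 ± 0.18 on Pgam1.

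Enolases split by isoform as well. Eno2, the enolase best known from neurons (chr6:124710388-124710447), had signals of 3802 and 4362 untreated and 20998 and 17797 after OGD, and at 12.3-fold its increase was the largest of the 39 genes (log2 3.62 ± 0.10; limma, adjusted p = 0.000731; spiked-in scaling 2.33). Eno1, the ubiquitous form, had signals of 50112 and 42054 untreated and 27164 and 31284 after OGD. Its log2 fold change of 0.72 ± 0.19 was close to the threshold (limma, adjusted p = 0.0336), was not called without either untreated array (0.58 to 0.85) or without the second OGD array (0.52), and was −0.57 with spiked-in scaling and −0.04 with quantile normalization. Eno3, the muscle form, had signals of 1747 and 1703 untreated and 469.6 and 421 after OGD and fell by 0.58 ± 0.08 on the log2 scale (limma, adjusted p = 0.00562), a call lost without either untreated array (−0.61 to −0.55). Eno2 gained 2.90 ± 0.32 on Eno1 and 4.20 ± 0.12 on Eno3. Pkm, which encodes pyruvate kinase of the last step, rose 1.81-fold relative to the 75th percentile (log2 0.86, and 0.78 without the second untreated array, when the call was lost) and was lower, at −0.43, with spiked-in scaling. A second Pkm probe rose 2.41-fold and was at −0.02 with spiked-in scaling (limma, adjusted p = 0.876). Only Eno2 and Hk2 rose over 10-fold, which 0.708% of all genes tested did. With quantile normalization and with spiked-in scaling 0 of the 39 genes did, against 0.622% and 0.204% of all genes tested.

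Of the 12 glycogen genes 9 rose, 2 fell and 1 did not pass the test relative to the 75th percentile, with a median log2 fold change of 1.01, where 37.1% and 27.8% of all genes tested rose and fell. With spiked-in scaling 0 rose, 5 were lower and the median was −0.28, where 83.3% of all genes tested were lower and their median was −1.13. Phosphoglucomutase links glucose-6-phosphate to glycogen, and the array's names Pgm1 and Pgm2 belong to transcripts that RefSeq now names Pgm2 and Pgm1. The array's Pgm1 rose 2.52-fold (log2 1.33 ± 0.24, the widest error of the 39 genes, and 1.18 without the second untreated array, when the call was lost) and its Pgm2 rose 2.00-fold, and their changes differed by 0.33 ± 0.26 with overlapping groups. Ugp2, which makes UDP-glucose, rose by 0.82 on the log2 scale, Gyg, the primer glycogenin, by 1.28, Gys1, glycogen synthase, by 1.17, and Gbe1, the branching enzyme, by 1.29. Their values with spiked-in scaling were −0.47, −0.01, −0.12 and 0.01 at the brightest probes. A second Gbe1 probe, which the array's design assigns to another transcript, was at 1.30 (limma, adjusted p = 0.000348).

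Glycogen phosphorylases, which release glucose-1-phosphate from glycogen, split by isoform. Pygb, the brain form (chr2:150656541-150656600), had signals of 12496 and 13612 untreated and 2766 and 2608 after OGD and fell 1.88-fold (log2 −0.91 ± 0.09; limma, adjusted p = 0.00292), and by 2.20 on the log2 scale with spiked-in scaling. Pygm, the muscle form that astrocytes also use, had signals of 173 and 184 untreated and 176 and 194 after OGD and rose 2.69-fold (log2 1.43 ± 0.14; limma, adjusted p = 0.00295). Pygl, the liver form, had signals of 1661 and 1770.3 untreated and 1416 and 1284 after OGD and rose 2.04-fold (log2 1.03 ± 0.08; limma, adjusted p = 0.00181). Relative to Pygb, Pygm gained 2.33 ± 0.11 and Pygl gained 1.93 ± 0.03. With spiked-in scaling Pygm and Pygl were at 0.14 and −0.26, so that an increase of these forms was seen only relative to the rest of the array.

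The Ppp1r3 subunits bring protein phosphatase 1 to glycogen. Ppp1r3d (chr2:178145994-178146053) had signals of 1336 and 1431 untreated and 172 and 126 after OGD and fell 3.62-fold (log2 −1.86 ± 0.12; limma, adjusted p = 0.0014). Ppp1r3c, also called PTG, rose by 0.47 ± 0.11 on the log2 scale (limma, adjusted p = 0.0223), a call lost without either untreated array or the first OGD array (0.38 to 0.56), and was lower, at −0.82, with spiked-in scaling. Ppp1r3b was at 0.37 ± 0.19 (limma, adjusted p = 0.171). Ppp1r3c gained 2.33 ± 0.09 on Ppp1r3d, and its change differed from that of Ppp1r3b by 0.11 ± 0.35, with overlapping groups.

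Several genes were read by more than 1 probe, and the probes did not always move alike. The brightest probe of Hk1 was at 1.18, while a probe nearer the 3′ end was at 0.11 ± 0.21 (limma, adjusted p = 0.679) and a probe farther upstream was at 1.85 ± 0.12. With spiked-in scaling the upstream Hk1 probe was higher, at 0.56 (limma, adjusted p = 0.0158), as was the upstream Tpi1 probe, at 0.83 (limma, adjusted p = 0.00136). For Pfkfb3 the brightest probe was at 1.47 and an upstream probe at 2.96, and the latter stayed higher with spiked-in scaling, at 1.67 (limma, adjusted p = 0.000135). Gbe1 showed 1.29 at its brightest probe and 2.59 at a dim upstream probe, with signals of 32.3 and 31.1 untreated and 73.3 and 73.8 after OGD. The array's design assigns that dim probe to another transcript, so the 2 probes may not read the same RNA. The second probe of Eno1 was at 0.54 and did not pass the test (limma, adjusted p = 0.065). All 8 Gapdh probes rose, by 0.81 to 1.44 on the log2 scale, and the brightest of them and 1 other are placed by the array's design on chromosome 7 rather than at the gene on chromosome 6, so that near-identical copies may share their signal. Among 9 genes whose probes did not overlap, the most upstream probe had the larger change in 7 and the smaller in 2. These counts include differences as small as 0.09 (Gys1) and −0.10 (Ugp2). The probes of some of these genes, such as Pfkfb3 and Gbe1, are assigned to different transcripts. Shares over other genes of the array were not computed, so the counts describe these genes alone.

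The upstream probes of Hk1, Pfkfb3 and Tpi1 are printed because each gave a larger increase than the probe at the 3′ end of the same gene. Each is 60 bases long and shown 5′ to 3′ in the sense of the transcript, with positions on mm9, and the Pfkfb3 probe spans a splice junction.
Hk1, chr10:61732717-61732776: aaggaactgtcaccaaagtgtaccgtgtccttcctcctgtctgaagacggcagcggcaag
Pfkfb3, chr2:11404189-11405602: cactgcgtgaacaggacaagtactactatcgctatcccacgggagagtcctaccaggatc
Tpi1, chr6:124761923-124761982: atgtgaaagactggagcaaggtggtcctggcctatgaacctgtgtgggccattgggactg

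**Figure D4:**
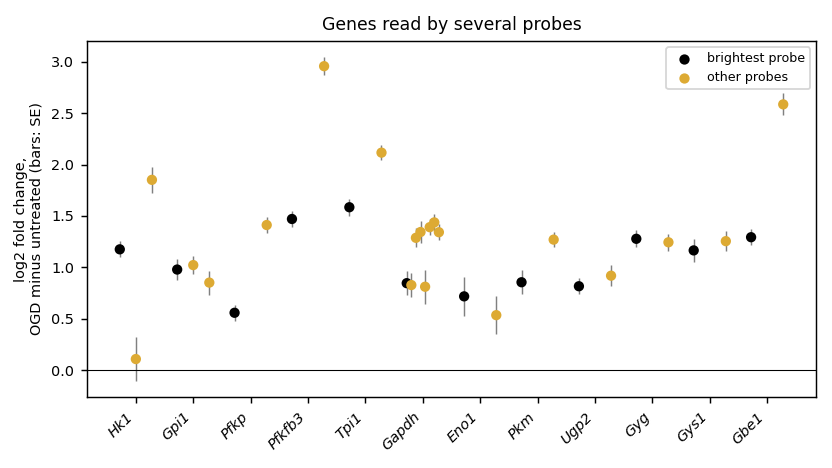
The log2 fold change (OGD minus untreated, y axis, bars show the SE) is given for every tested probe of the 12 genes with more than 1, with the brightest probe of each gene in black and the others in yellow. The probes of Hk1, Pfkfb3 and Gbe1 differ by over 1, whereas those of Gpi1, Gyg and Gys1 lie close together.

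Genes of neighboring pathways are given for comparison. Of 60 related genes, which cover other glucose transporters, other glycolytic enzymes and regulators, gluconeogenesis, the pentose phosphate pathway, glycogen regulators and the entry of other sugars, 55 were tested, 17 rose, 15 fell and 23 did not pass the test, with a median log2 fold change of 0.03. The shares over all genes tested, 37.1% higher and 27.8% lower, were near these. With spiked-in scaling 2 of the 55 were higher and 48 lower, where 3.84% and 83.3% of all genes tested were. Of the 55, 7 passed the filter through the untreated group alone, and 3 of the 15 that fell (Slc2a5, Fbp2 and G6pc) were above background on no OGD array. Of 9 other glycolytic enzymes and regulators tested 2 rose, 1 fell and 6 did not pass the test. Among genes above background on all 4 arrays, 3 of 3 other glucose transporters fell, and of 5 gluconeogenic genes 1 rose and 2 fell. Of 8 genes of the pentose phosphate pathway 3 rose and 2 fell, and of 18 other glycogen genes 7 rose and 2 fell. Among those that changed over 4-fold were H6pd and Ppp1r3g. H6pd, the microsomal glucose-6-phosphate dehydrogenase, had signals of 2084 and 2181 untreated and 179 and 135 after OGD and fell 5.30-fold (limma, adjusted p = 0.000857). Ppp1r3g, another glycogen-targeting subunit, had signals of 192 and 184 untreated and 389 and 251 after OGD and rose 4.31-fold (limma, adjusted p = 0.00203).

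The labelled cell type was checked by marker genes, whose levels relative to the 75th percentile were summed over each list. All 13 astrocyte markers exceeded background on every array, 7 rose and 2 fell, and the sum was 184 and 167 untreated and 255 and 263 after OGD. Sums are carried by the brightest genes, so the calls of the members, which are relative to the 75th percentile, stand beside them. With spiked-in scaling 0 astrocyte markers were higher and 10 lower, and in the other lists 0 were higher except for 1 neuronal marker, and the lower ones numbered 6 neuronal, 7 microglial, 8 oligodendrocyte, 5 NG2, 7 fibroblast and 3 endothelial. Of all genes tested, 3.84% were higher and 83.3% lower on that scale. Relative to the 75th percentile 37.1% of all genes tested rose and 27.8% fell. Of 8 neuronal markers 7 were above background on all arrays, and of these 4 rose and 1 fell. The neuronal sums were 31.1 and 29.1 untreated and 31.3 and 34.4 after OGD, carried mostly by Stmn2. Among the 8, Nefl rose 3.85-fold and Nefm 2.48-fold, while Syt1 fell 1.52-fold. Rbfox3 was also called lower, but it was well above background on neither OGD array and passed the filter through the untreated group. Of 10 microglial markers 7 were above background on all arrays, 4 rose and 1 fell, with sums of 4.82 and 4.42 untreated and 6.96 and 6.68 after OGD. Of 10 oligodendrocyte markers 9 were above background on all arrays, and of these 4 rose and 2 fell. Sox10 also fell but was well above background on 1 OGD array only. The oligodendrocyte sums were 38.6 and 36.2 untreated and 43.6 and 45.3 after OGD, and Olig2 fell 5.68-fold. Markers of NG2 glia (4 of 5, 2 rose and 2 fell, median log2 fold change −0.47) summed to 21.3 and 20.6 and then 39.0 and 38.3, carried mostly by Ptprz1. Fibroblast markers (7 of 7, 1 rose and 2 fell, median −0.26) summed to 52.1 and 42.9 and then 75.7 and 58.6 without Col1a1, which has no value on 1 OGD array, and were carried mostly by Fn1, while Pdgfrb fell 5.35-fold. Of 5 endothelial markers 3 were above background on all arrays and 2 (Cldn5 and Tek) on none. The part of these cell types in the changes of the glucose genes was not tested.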

How the data were processed

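Per the labels and the methods, the authors amplified total RNA of each sample, labeled it with Cy3 and hybridized it to a 1-color Agilent array, and the submitters' processing notes name Agilent Feature Extraction 11.5.1.1. The deposited scanner files hold an intensity per spot (the processed signal, with background subtracted) and other marks for spots well above background, which the authors' table of the whole series repeats without difference for the signal. Values were not normalized between arrays. Probe positions are on mm9, and gene names are those of the array's design.

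Control spots and 119 to 132 outlier spots per array were left out, and spots of a probe were averaged as log2 values. Each array's 75th percentile was subtracted. The filter required that in 1 or both groups each array had a fraction of 0.5 or more of a probe's spots marked as well above background, which left 28269 probes, of which 28258 had the values needed for the test. The comparison used limma 3.58.1 (lmFit, eBayes) in R 4.3.3 with Benjamini–Hochberg adjustment over all probes tested. A gene is given by its brightest probe over the 4 arrays. Other probes are named where they differed from it by over 1 on the log2 scale or lay on the other side of the threshold, and related genes only where they changed over 4-fold. A result of 1 related gene is not reported here. Normexp correction added an offset of 50. Python 3.11.15, pandas 2.3.3, numpy 2.4.6 and matplotlib 3.10.9 made the tables and figures. The fit was tested on simulated data. The alternatives were the methods' t-test, the replicate number as a block, other background correction and scalings, other filters, the series table, the mean over probes and leaving out each array. The test of the methods was replaced by limma, and its counts are given as an alternative. The genes and lists were chosen with earlier results of these data known. Between 64.5% and 73.7% of spots per array were well above background, and no spot was saturated. For arrays the number of samples limits the precision.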

Additional observations from a re-analysis of the deposited data

How the results depend on the processing

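Scaling moved the counts of genes most among the alternatives run. With spiked-in scaling 5 genes were higher and 19 lower, 4 and 8 of them over 2-fold, and with quantile normalization 10 were higher over 2-fold. Spiked-in scaling lowers the log2 fold change of every gene by the same amount, so genes with small positive values change sign by construction. Of these, Slc2a4 (−0.72), Gpi1 (−0.31), Pfkm (−0.55), Pfkp (−0.73), Aldoc (−0.59), Gapdh (−0.44), Eno1 (−0.57), Pkm (−0.43), Ugp2 (−0.47), Ppp1r3b (−0.92) and Ppp1r3c (−0.82) passed the threshold there. Hk1 (−0.11), Pgk1 (−0.13), Pgam1 (−0.082), Pgm2 (−0.29), Gyg (−0.010), Gys1 (−0.12) and Pygl (−0.26) did not, nor did Gapdh (−0.052) and Eno1 (−0.035), which changed sign with quantile normalization, as did Aldoc (−0.18). The genes that fell numbered 6 to 7 and those that rose 26 to 31 under the methods' t-test, the other filters, the series table, the mean over probes, normexp and median scaling, and the t-test lost Pfkfb4, Eno1, Pgm1 and Ppp1r3c. Leaving out each array in turn gave 23 to 28 genes higher, 6 to 8 lower, 18 to 20 higher over 2-fold and 5 lower over 2-fold, and 27 to 28 isoform pairs over 1 on the log2 scale. Where a group was left with 1 array, that array was assumed to vary like the others. The labels do not say whether the sample numbers pair the samples. The correlation of same-numbered deviations was −0.03, which with 2 arrays per group cannot decide this. With the replicate block 28 genes rose and 7 fell, 19 and 5 of them over 2-fold, with Eno1 and Ppp1r3c lost and Aldoc gained. Aldoc was also gained with median scaling, normexp, the stricter filter and without the first untreated array. Of the 37 isoform pairs, normexp moved 18, quantile normalization 28 and the mean over probes 6. Normexp took Pfkfb1, whose OGD signals were dim, from −3.27 to −1.51.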
